A study of Mus musculus with 3 samples.

Results

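The genes described here are 40 that dividing cells use to copy their DNA (19 S phase genes) or to enter and complete mitosis (21 G2 and mitosis genes). The list is one of function, and no measured value enters it as a criterion, but it was drawn up with earlier results of these data known. The platform annotation gave 39 of them a probe set of their own, of 18193 genes with one. Ccnb1 had none in it and is not described. Tyms, a thymidylate synthase that makes the thymine nucleotide, read 29.4 with LPS+8-Br-cAMP, 20.1 with LPS and 12.6 unstimulated, under the floor of 32.5 on every array. That left 38 genes measured on at least 1 array.

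The cells were mouse bone marrow-derived dendritic cells (BMDCs), grown from bone marrow for 10 days in 10 ng/ml GM-CSF. They had been given 10 ng/ml LPS with 100 µM 8-Br-cAMP for 3 h, given 10 ng/ml LPS alone for 3 h, or left unstimulated, with no matching incubation time recorded. LPS is a bacterial ligand of Toll-like receptor 4, and 8-Br-cAMP enters cells and stands in for cyclic AMP. The labels give neither the strain and sex of the mice nor their number. RNA of each condition was hybridised to 1 Affymetrix Mouse 430 2.0 array, so no test, standard error or p-value can be had for any difference below. Bulk RNA does not tell fewer dividing cells from less of a transcript in each cell.

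A cell prepares to replicate in G1, when Cdc6 and Cdt1 load the Mcm2 to Mcm7 helicase at origins and cyclin E with its kinase releases E2F factors from the Rb family. E2F targets supply nucleotides and fork proteins in S phase. Later genes give the cyclins, kinases and spindle proteins of mitosis. Many of them are repressed in resting cells by the DREAM complex through CHR promoter elements, and activated by Foxm1 and Mybl2. GM-CSF bone marrow cultures hold dividing precursors beside dendritic cells that have left the cycle.

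Signals below are MAS5 probe set intensities, each array scaled to a common trimmed mean. A gene is given by its brightest probe set. A 2-fold difference, 1 on the log2 scale, was the threshold for calling a gene higher or lower. Where 1 array was under the floor, the floor stood in for its signal and the difference is written as at least that size. Signals of different probe sets are not comparable as RNA levels.

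The LPS+8-Br-cAMP array was dimmer as deposited, with a trimmed mean of 63.2 against 111 for LPS and 135 unstimulated, so its signals were multiplied by 1.63 and small signals on it weigh least. The labelled cell type had its markers. All 13 dendritic and all 9 macrophage markers were above the floor on every array. The cultures were not alike in other ways. Xist, the transcript of the inactive X chromosome, read 1716 with LPS+8-Br-cAMP, against 8.08 with LPS and 32.3 unstimulated. The Y-linked Eif2s3y read 1.24 with LPS+8-Br-cAMP, against 272 with LPS and 352 unstimulated. The LPS+8-Br-cAMP culture therefore carried sex-linked transcripts of another kind than the other two, and treatment, sex and culture cannot be told apart.

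Across the 3 arrays these genes were mostly lowest with LPS+8-Br-cAMP and highest unstimulated. The lowest signal lay on the LPS+8-Br-cAMP array for 26 of the 38 genes (68.4%), on the LPS array for 9 and on the unstimulated array for 3. Over the 13289 genes above the floor on some array, 35.7% were lowest with LPS+8-Br-cAMP. The highest signal lay on the LPS+8-Br-cAMP array for 4 genes (10.5%), on the LPS array for 10 (26.3%) and on the unstimulated array for 24 (63.2%), beside 32.6% of all genes for LPS+8-Br-cAMP, 22.0% for LPS and 45.4% unstimulated. Among the 20 G2 and mitosis genes, 16 (80.0%) were lowest with LPS+8-Br-cAMP. Of the 39 genes with a probe set, 28 stood above the floor with LPS+8-Br-cAMP, 35 with LPS and 37 unstimulated. Of all 18193 genes with one, 11294 stood above it with LPS+8-Br-cAMP, 10973 with LPS and 11170 unstimulated. Pcna and Mki67 did not follow this pattern. Pcna, the sliding clamp that holds polymerases on DNA, read 2677 with LPS+8-Br-cAMP, 2863 with LPS and 2037 unstimulated. Mki67, the antigen that coats mitotic chromosomes and gives the Ki-67 stain, read 565 with LPS+8-Br-cAMP, 823 with LPS and 270 unstimulated.

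**Figure D1:**
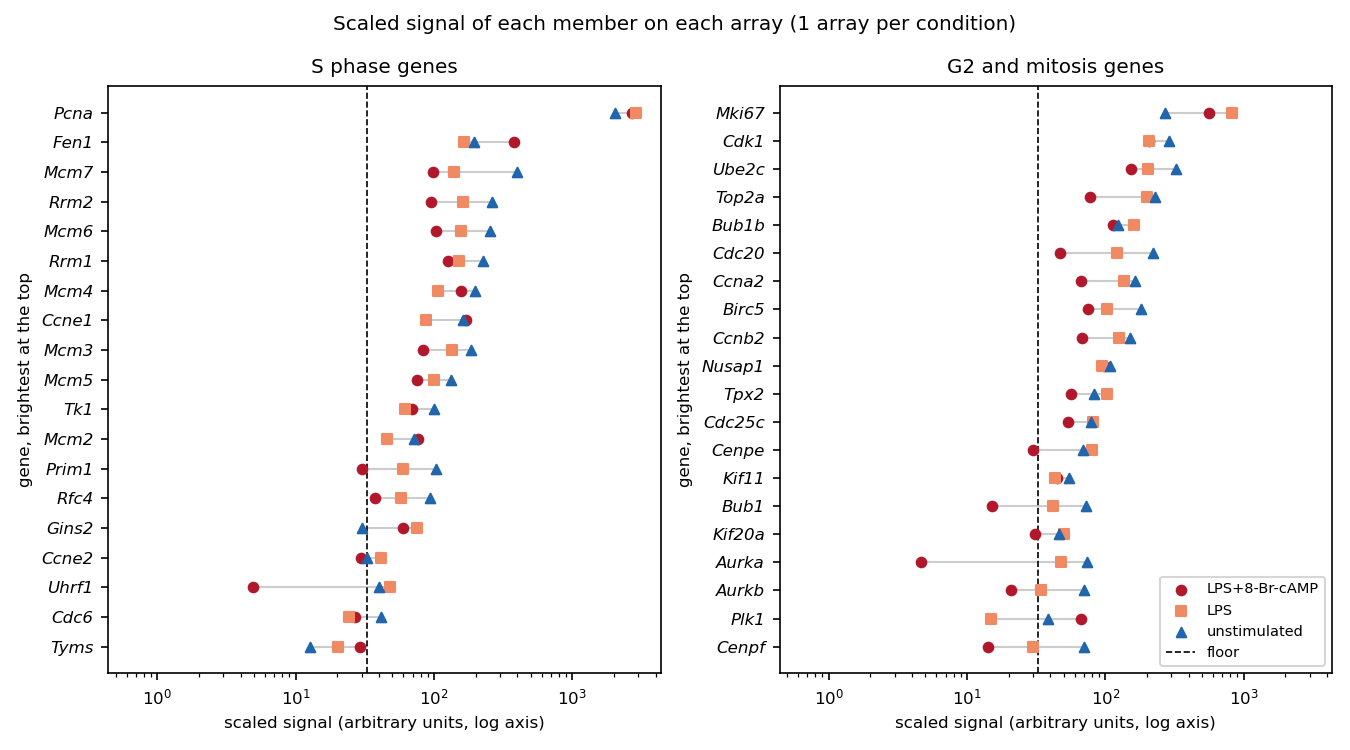
Scaled signal (log axis) of each of the 39 genes with a probe set on the LPS+8-Br-cAMP, LPS and unstimulated arrays, S phase genes and G2 and mitosis genes apart, with the floor of 32.5 as a line. Each point is 1 array; in most genes the LPS+8-Br-cAMP point lies lowest, and Pcna and Mki67 do not follow this.

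The first comparison, LPS+8-Br-cAMP against LPS, asks what the cyclic AMP analog added to LPS. Of 36 genes measured, 4 were lower by 2-fold (Top2a, Cdc20, Cenpe and Ccna2) and 2 were higher (Fen1 and Plk1). That is 11.1% lower, beside 5.81% of the 12572 genes measured, and 5.56% higher, beside 6.49%. Most of the difference was a small common lean. In all, 28 of 36 genes (77.8%) lay below 0, beside 46.8% of all genes, and the median log2 difference was -0.47, beside 0.05 over all genes. All 4 lower genes belong to G2 and mitosis, where the median was -0.54 over 19 genes. The S phase median was -0.35 over 17 genes. Among the 20 genes with a mean scaled signal of at least 100, well clear of the floor, a minimum chosen after the data had been seen, 3 were lower and 1 higher, beside 6.83% and 6.05% of all genes as bright. The error of 1 probe set, from pairs of probe sets of the same gene on these arrays, was 0.53 on the log2 scale, so a difference of the median's size in a single gene is within it.

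Top2a, topoisomerase IIα, which untangles sister chromatids, read 77.4 with LPS+8-Br-cAMP, against 199 with LPS and 230 unstimulated. Its log2 difference against LPS was -1.36, a 2.57-fold lower signal. Only the LPS+8-Br-cAMP array stood apart. Cdc20, which switches on the anaphase-promoting complex, read 47.2 with LPS+8-Br-cAMP, against 121 with LPS and 222 unstimulated (log2 -1.35 against LPS). Its signal differed on each of the 3 arrays. Cenpe, the kinesin that brings chromosomes to the spindle equator, read 30.0 with LPS+8-Br-cAMP, under the floor, against 80.0 with LPS and 68.5 unstimulated. It was at least 2.46-fold lower with LPS+8-Br-cAMP than with LPS. Ccna2, cyclin A, the partner of Cdk2 in S phase and of Cdk1 in G2, read 66.2 with LPS+8-Br-cAMP, against 135.5 with LPS and 163 unstimulated. Its log2 difference of -1.03 against LPS was the smallest of the 4. Prim1 was counted just outside, at least -0.88 with the floor standing in for its LPS+8-Br-cAMP signal.

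The higher genes rested on less. Fen1, the nuclease that trims Okazaki fragments, read 382 with LPS+8-Br-cAMP, against 164 with LPS and 196 unstimulated, a log2 difference of 1.22 against LPS. Its second probe set went the other way, with 70.1 for LPS+8-Br-cAMP, 106 for LPS and 119 unstimulated, a log2 difference of -0.60 against LPS. The direction for Fen1 is therefore not settled by these arrays. Plk1, the kinase that drives mitotic entry and spindle assembly, read 67.1 with LPS+8-Br-cAMP, against 15.0 with LPS, under the floor, and 38.6 unstimulated. That is higher by at least 2.06-fold against LPS, on the gene's single probe set. Ccne1, cyclin E1, lay just outside at 0.95, with 169 for LPS+8-Br-cAMP, 87.8 for LPS and 162 unstimulated, and its second probe set read 55.4 with LPS+8-Br-cAMP, 120 with LPS and 79.4 unstimulated.

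The promoters of these genes are shown because S phase and mitotic genes are known by the elements in them, and because a cyclic AMP response element (CRE) is where factors under cyclic AMP bind. The windows run from 250 bases before to 50 bases after the start site, from RefSeq, build GRCm38.p6. They are those of the 6 genes with the largest differences between LPS+8-Br-cAMP and LPS that had a window to print: Top2a at chr11:99024140-99024439 (minus strand), Cdc20 at chr4:118437294-118437593 (minus), Cenpe at chr3:135212313-135212612 (plus), Fen1 at chr19:10204344-10204643 (minus, the more upstream of its 2 windows), Plk1 at chr7:122159185-122159484 (plus) and Ccne1 at chr7:38107441-38107740 (minus). Capitals mark exact matches, on either strand, to CCAAT, to the CHR word TTTGAA, to the CRE word TGACGTCA or to 1 of the E2F words TTTCCCGC, TTTCGCGC, TTTGCCGC and TTTGGCGC.
Top2a: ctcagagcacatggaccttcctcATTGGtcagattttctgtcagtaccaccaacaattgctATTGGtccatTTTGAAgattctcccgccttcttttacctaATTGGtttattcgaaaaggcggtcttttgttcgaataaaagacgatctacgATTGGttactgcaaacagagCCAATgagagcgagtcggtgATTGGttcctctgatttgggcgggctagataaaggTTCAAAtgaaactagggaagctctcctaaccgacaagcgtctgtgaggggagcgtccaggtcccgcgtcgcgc
Cdc20: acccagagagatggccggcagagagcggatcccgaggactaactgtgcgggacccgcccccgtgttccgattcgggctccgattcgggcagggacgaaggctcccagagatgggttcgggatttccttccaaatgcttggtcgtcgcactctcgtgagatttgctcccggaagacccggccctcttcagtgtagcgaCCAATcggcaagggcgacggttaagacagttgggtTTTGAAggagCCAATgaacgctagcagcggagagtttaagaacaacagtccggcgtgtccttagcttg
Cenpe: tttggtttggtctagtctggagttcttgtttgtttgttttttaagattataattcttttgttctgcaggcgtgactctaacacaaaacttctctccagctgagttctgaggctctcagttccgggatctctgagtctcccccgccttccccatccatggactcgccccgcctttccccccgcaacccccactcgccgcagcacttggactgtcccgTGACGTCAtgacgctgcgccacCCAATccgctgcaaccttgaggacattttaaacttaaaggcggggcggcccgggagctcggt
Fen1: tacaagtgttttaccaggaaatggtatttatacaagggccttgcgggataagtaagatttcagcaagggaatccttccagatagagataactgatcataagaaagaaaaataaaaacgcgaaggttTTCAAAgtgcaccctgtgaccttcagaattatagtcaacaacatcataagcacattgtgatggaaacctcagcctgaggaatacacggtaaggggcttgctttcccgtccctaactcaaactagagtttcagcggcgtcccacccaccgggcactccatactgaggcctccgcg
Plk1: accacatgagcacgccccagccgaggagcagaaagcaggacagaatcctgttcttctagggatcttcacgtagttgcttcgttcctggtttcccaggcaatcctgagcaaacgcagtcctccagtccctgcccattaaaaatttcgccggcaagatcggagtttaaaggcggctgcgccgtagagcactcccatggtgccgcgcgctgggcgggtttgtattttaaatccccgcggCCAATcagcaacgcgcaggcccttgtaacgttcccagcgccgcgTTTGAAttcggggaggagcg
Ccne1: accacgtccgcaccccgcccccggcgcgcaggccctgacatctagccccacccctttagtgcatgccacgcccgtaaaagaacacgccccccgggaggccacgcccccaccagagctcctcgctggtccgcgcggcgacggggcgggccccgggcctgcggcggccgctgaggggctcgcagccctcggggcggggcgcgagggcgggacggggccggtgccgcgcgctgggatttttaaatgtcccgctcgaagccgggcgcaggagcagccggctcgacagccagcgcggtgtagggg

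In these windows Top2a had 6 CCAAT and 2 CHR matches, and Cdc20 had 2 CCAAT matches with 1 CHR match between them. The CHR match began 18 bases before the start site in Cdc20 and 23 bases before it in Top2a. Plk1 had a CCAAT match 14 bases before its start site and a CHR match from base 31 of the transcript. Cenpe had the full CRE word 34 bases before its start site and a CCAAT match 12 bases before it. Fen1 had 1 CHR match, and Ccne1 matched none of these words in this window. Plk1, which was higher, thus carried the same 2 words as Top2a and Cdc20, which were lower. Fen1, whose direction is not settled, carried 1 of them in the window printed and not in its other window.

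Windows on chromosome 18 were not used, and 32 of the 40 genes had a window elsewhere. Shares of these genes below are of genes, and those of all windows are of windows. CCAAT was in those of 24 genes, 14 of 16 G2 and mitosis genes (87.5%) and 10 of 16 S phase genes (62.5%), beside 37.4% of all 32851 windows. The CHR word was in 11 of 16 G2 and mitosis genes (68.8%) and 2 of 16 S phase genes (12.5%), beside 17.9% of all windows. An E2F word was in 6 of 16 S phase genes (37.5%: Cdc6, Mcm3, Mcm5, Mcm6, Mcm7 and Uhrf1) and 1 of 16 G2 and mitosis genes (Cdk1), beside 2.26%. The CRE word was in 2 of 32 genes (6.25%: Cenpe and Mcm5), beside 1.79%. Counted by window, the S phase shares were 63.2% for CCAAT, 10.5% for the CHR word and 31.6% for an E2F word. The CRE share over the windows of all these genes was 5.71%. The words do not overlap one another in the windows printed. A match is a description of the letters and not evidence of a bound factor.

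The second comparison, LPS against unstimulated, asks what 3 h of LPS did. Of 38 genes measured, 3 were lower by 2-fold (Mcm7, Cenpf and Aurkb) and 2 were higher (Mki67 and Gins2). The lower share of 7.89% was under the 13.0% of all 12283 genes measured, and the higher share of 5.26% stood beside 6.64%. The median was -0.43, beside -0.21 over all genes, and 28 of 38 genes (73.7%) lay below 0, beside 61.8%. All 6 helicase subunits were below 0, from -0.41 in Mcm5 to -1.53 in Mcm7. The S phase median was -0.62 over 18 genes and the G2 and mitosis median -0.27 over 20. Among the 20 genes with a mean scaled signal of at least 100, 1 was lower and 1 higher, beside 12.7% and 9.99% of all genes as bright. The error of 1 probe set was 0.49.

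Mcm7 read 139 with LPS, against 401 unstimulated, and 98.5 with LPS+8-Br-cAMP. Its 3 other probe sets kept the same order, for example 102 with LPS+8-Br-cAMP, 157 with LPS and 242.5 unstimulated. Cenpf, a kinetochore protein that builds up in G2, was under the floor at 30.0 with LPS, against 70.1 unstimulated, at least 2.16-fold lower with LPS. Aurkb, the kinase that corrects faulty spindle attachments, read 34.2 with LPS, against 69.9 unstimulated (log2 -1.03). These last signals were close to the floor.

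Mki67 went the other way. It read 823 with LPS, against 270 unstimulated (log2 1.61), and stayed above the unstimulated signal with LPS+8-Br-cAMP at 565. It had 1 probe set, so no other measurement of it bears on this. Gins2, a subunit of the GINS complex that activates the helicase, read 75.3 with LPS, against 30.2 unstimulated, under the floor, at least 2.31-fold higher with LPS. Its second probe set showed no such difference, with 32.8 for LPS and 35.3 unstimulated (log2 -0.11).

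The third comparison, LPS+8-Br-cAMP against unstimulated, sets both agents together against neither, and here the genes were lower as a group. Of 38 measured, 17 were lower by 2-fold (44.7%), beside 15.8% of the 12793 genes measured, and 1 was higher (2.63%), beside 9.36%. Of the 17 genes, 11 were above the floor on both arrays and 6 were bounds, with LPS+8-Br-cAMP under the floor. The median was -0.69, beside -0.12 over all genes. G2 and mitosis had 11 of 20 genes lower (55.0%, median -1.08) and S phase 6 of 18 (33.3%, median -0.44). Among the genes with a mean scaled signal of at least 100, 10 of 20 were lower, beside 17.3% of all genes as bright, and 1 was higher, beside 12.3%. Each of the 3 comparisons shares an array with the other two, so they are not separate evidence.

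**Figure D2:**
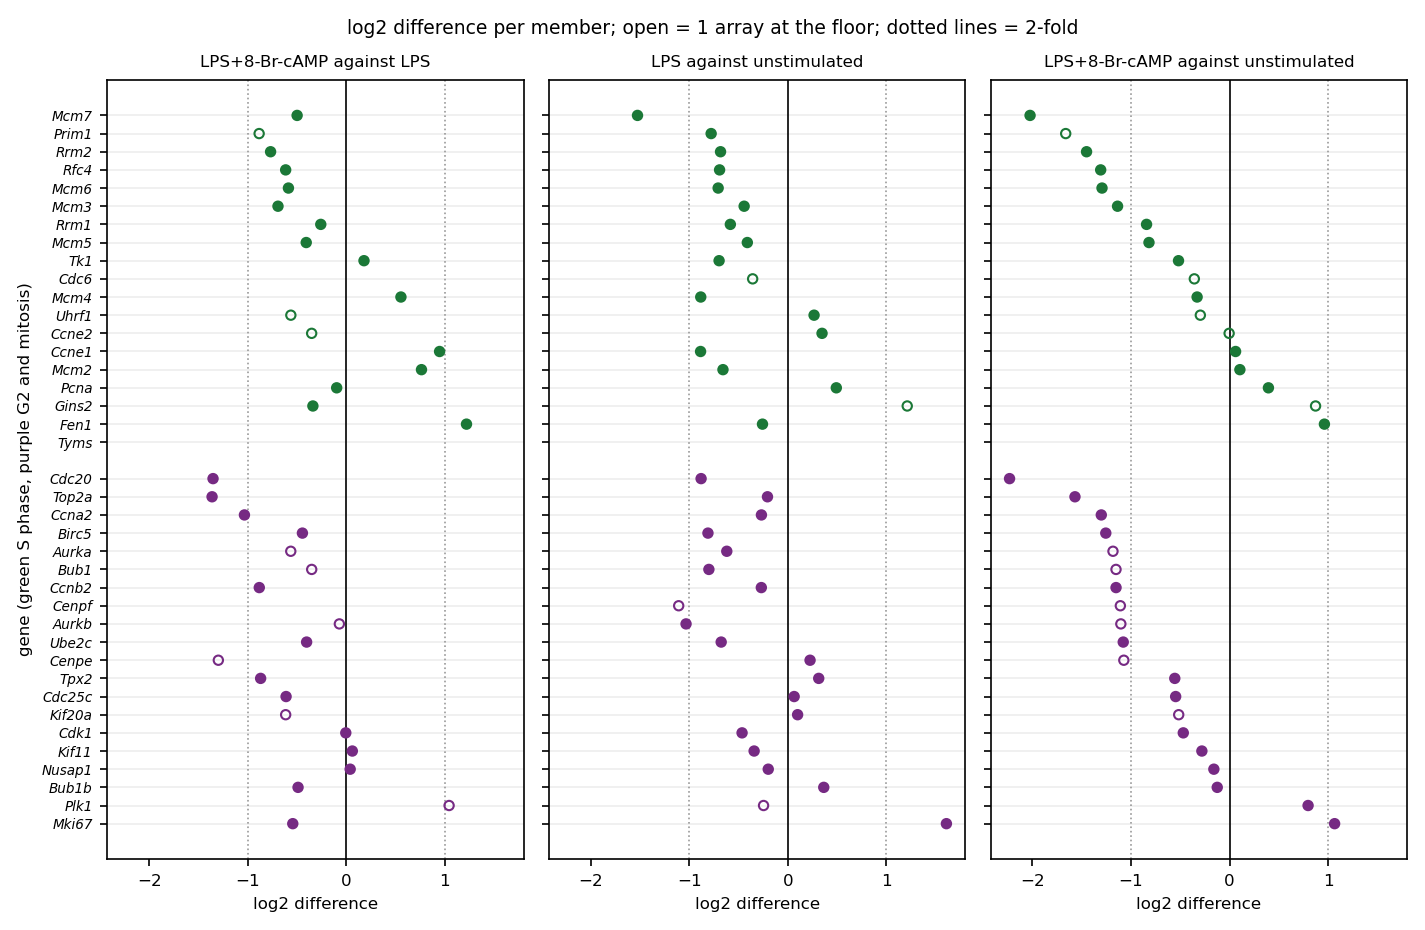
Log2 difference of each measured gene in LPS+8-Br-cAMP against LPS, LPS against unstimulated and LPS+8-Br-cAMP against unstimulated, S phase genes and G2 and mitosis genes apart, with lines at 0 and at 2-fold. Open symbols are bounds, where 1 array was under the floor; in LPS+8-Br-cAMP against unstimulated, 17 of 38 points lie left of the lower 2-fold line.

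The helicase subunits Mcm2 to Mcm7, which unwind DNA at the fork, were not uniform. Against unstimulated, 3 of 6 were lower by 2-fold with LPS+8-Br-cAMP. Mcm7 was lowest against unstimulated, by 4.07-fold (log2 -2.02). Mcm6 read 104 with LPS+8-Br-cAMP, 156 with LPS and 255 unstimulated (log2 -1.29 for LPS+8-Br-cAMP against unstimulated). Mcm3 read 83.7 with LPS+8-Br-cAMP, 135 with LPS and 184 unstimulated (log2 -1.14). Each of these 3 was lowest with LPS+8-Br-cAMP and highest unstimulated. Mcm2, with 77.2 for LPS+8-Br-cAMP, 45.5 for LPS and 71.8 unstimulated, and Mcm4, with 157 for LPS+8-Br-cAMP, 107 for LPS and 197 unstimulated, were lowest with LPS instead. The second probe set of Mcm2 read 14.3 with LPS+8-Br-cAMP, 48.1 with LPS and 37.9 unstimulated, so its direction against LPS is not settled, whereas that of Mcm4 was again lowest with LPS, at 67.8. Mcm5, with 75.5 for LPS+8-Br-cAMP, 100 for LPS and 133 unstimulated, had the order of Mcm3 without reaching 2-fold.

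Of the nucleotide supply genes, 3 were measured and 1 passed 2-fold. Rrm2, the S phase subunit of ribonucleotide reductase, read 95.3 with LPS+8-Br-cAMP, 162 with LPS and 261 unstimulated (log2 -1.45 for LPS+8-Br-cAMP against unstimulated). Its other 2 probe sets kept this order. Rrm1, the large subunit, was 126 with LPS+8-Br-cAMP, 151 with LPS and 227 unstimulated, short of 2-fold on its brightest probe set. Its second probe set read 54.4 with LPS+8-Br-cAMP, 108 with LPS and 187 unstimulated. That was past 2-fold for LPS+8-Br-cAMP against unstimulated (log2 -1.78). Tk1, a thymidine kinase of S phase, was 69.9 with LPS+8-Br-cAMP, 61.7 with LPS and 100.0 unstimulated, so it was lowest with LPS.

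Among fork and origin factors, Prim1, the primase subunit that starts each new strand, read 29.9 with LPS+8-Br-cAMP, under the floor, 60.0 with LPS and 103 unstimulated. It was at least 3.17-fold lower with LPS+8-Br-cAMP than unstimulated. Rfc4, of the complex that loads Pcna, read 37.6 with LPS+8-Br-cAMP, 57.6 with LPS and 93.1 unstimulated (log2 -1.31 for LPS+8-Br-cAMP against unstimulated). Pcna itself differed by 0.39 in that comparison. So the loader subunit and the clamp did not move together here. Cdc6 was above the floor on the unstimulated array alone, at 41.7. Uhrf1, which carries DNA methylation through replication, read 4.95 with LPS+8-Br-cAMP, 48.0 with LPS and 39.97 unstimulated, and Ccne2, cyclin E2, read 29.7 with LPS+8-Br-cAMP, 41.5 with LPS and 32.6 unstimulated, both too near the floor to reach 2-fold.

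For mitotic entry, Ccna2 was 2.46-fold and Ccnb2, a cyclin B, 2.22-fold lower with LPS+8-Br-cAMP than unstimulated. Ccnb2 read 67.6 with LPS+8-Br-cAMP, 125 with LPS and 150 unstimulated. Their kinase Cdk1 differed less, with 208 for LPS+8-Br-cAMP, 208 for LPS and 287 unstimulated. The cyclins, not the kinase, passed 2-fold. Cdc25c, the phosphatase that activates Cdk1, was 53.7 with LPS+8-Br-cAMP, 82.0 with LPS and 78.5 unstimulated.

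Both genes listed for mitotic exit were lower by 2-fold. Cdc20 was 4.70-fold lower with LPS+8-Br-cAMP than unstimulated (log2 -2.23), and its second probe set differed by -0.70. Ube2c, the ubiquitin-conjugating enzyme of the same complex, read 153 with LPS+8-Br-cAMP, 202 with LPS and 323 unstimulated (log2 -1.08). Both genes were lowest with LPS+8-Br-cAMP and highest unstimulated. Transcripts of the anaphase-promoting complex and cullin ligases themselves, 21 genes measured, had 1 lower by 2-fold and 0 higher (4.76% lower, beside 15.8% of all genes). That gene was Cdc23, an anaphase-promoting complex subunit, under the floor at 29.1 with LPS+8-Br-cAMP and 25.1 with LPS, against 125 unstimulated.

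Of the mitotic and checkpoint kinases, 3 of 5 were lower by 2-fold with LPS+8-Br-cAMP than unstimulated, all as bounds. Aurka, the spindle pole kinase, read 4.68 with LPS+8-Br-cAMP, 48.1 with LPS and 73.9 unstimulated, at least 2.27-fold lower than unstimulated. Aurkb read 20.9 with LPS+8-Br-cAMP, at least 2.15-fold lower than unstimulated. Bub1, a spindle checkpoint kinase, read 15.1 with LPS+8-Br-cAMP, 41.5 with LPS and 72.3 unstimulated, at least 2.22-fold lower than unstimulated. Its relative Bub1b was 114 with LPS+8-Br-cAMP, 160 with LPS and 124 unstimulated. Plk1 and Bub1b were the kinases that did not pass 2-fold in this comparison. For Bub1b the log2 difference was -0.13 on its brightest probe set, and -0.65 and -0.73 on its dimmer ones. With LPS+8-Br-cAMP against LPS the same probe sets gave -0.49, 0.24 and -1.70. The direction for Bub1b against LPS is therefore not settled.

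Of the 7 genes of the spindle, kinetochore and midzone, all lay below 0 in this comparison, beside 56.2% of all genes. Of these 7, 3 were lower by 2-fold. Birc5, survivin, the chromosomal passenger protein that works with Aurkb, read 75.1 with LPS+8-Br-cAMP, 102 with LPS and 179 unstimulated (log2 -1.26 for LPS+8-Br-cAMP against unstimulated). Cenpf was at least 2.16-fold lower and Cenpe at least 2.10-fold lower with LPS+8-Br-cAMP than unstimulated. Cenpe and Cenpf sat under the floor with LPS+8-Br-cAMP at 30.0 and 14.2. The motor Kif11, which pushes spindle poles apart, read 44.8 with LPS+8-Br-cAMP, 42.9 with LPS and 54.5 unstimulated. The microtubule bundler Nusap1 read 97.2 with LPS+8-Br-cAMP, 94.6 with LPS and 109 unstimulated, differences within the error of 1 probe set. Tpx2, which activates Aurka on the spindle, and Kif20a, a kinesin of cytokinesis, differed by -0.56 and at least -0.52 in log2. On mitotic chromosomes, Top2a was 2.97-fold lower with LPS+8-Br-cAMP than unstimulated, whereas Mki67 was 2.09-fold higher. The genes just inside and outside the threshold were Cenpe at -1.07 and Rrm1 at -0.84, and Mki67 at 1.07 and Fen1 at 0.96.

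**Figure D3:**
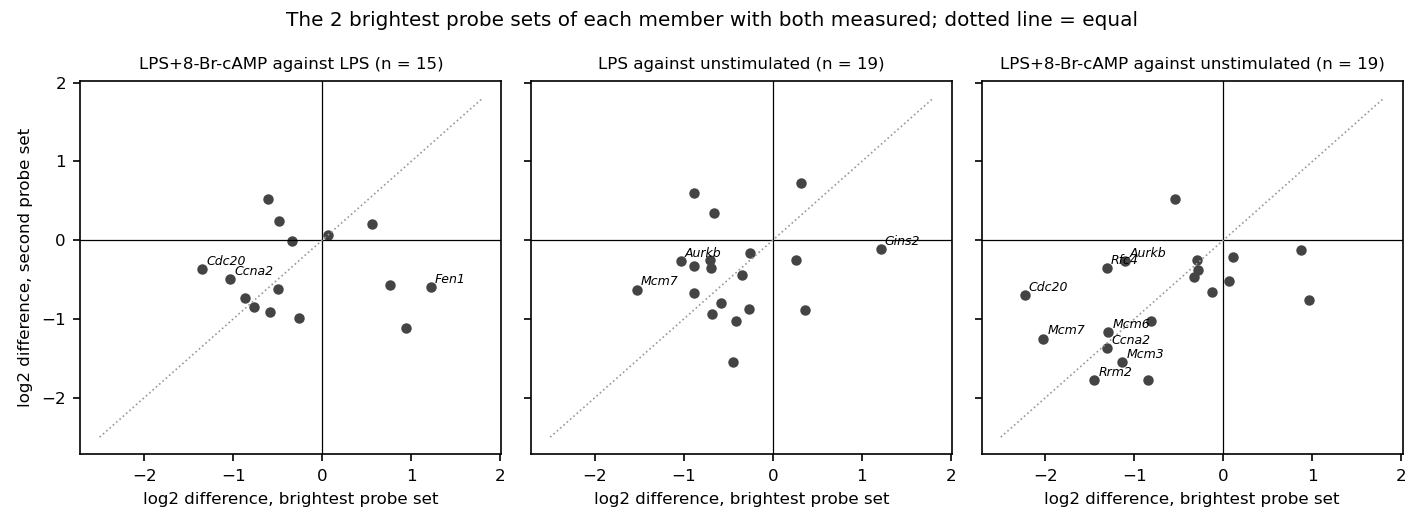
Log2 difference of the second brightest probe set against that of the brightest, for genes with both measured, in each of the 3 comparisons. Points in the lower left quadrant are lower on both; with LPS+8-Br-cAMP against unstimulated the second probe set had the same direction in 14 of 19 genes, and Fen1 lies on opposite sides of 0 in LPS+8-Br-cAMP against LPS.

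Second probe sets gave a check within the same arrays. For LPS+8-Br-cAMP against unstimulated, 8 of the 18 genes past 2-fold had a second probe set measured. All 8 had the same direction and 5 were also past 2-fold. For LPS+8-Br-cAMP against LPS, 3 of 6 had one. Of these, Ccna2 and Cdc20 had the same direction and Fen1 the opposite, and 0 were past 2-fold. The second probe set of Cdc20 read 90.0 with LPS+8-Br-cAMP, 116 with LPS and 146 unstimulated. That of Ccna2 read 56.6 with LPS+8-Br-cAMP, 79.6 with LPS and 146 unstimulated. For LPS against unstimulated, 2 of 3 had the same direction and 0 were past 2-fold. Over every probe set of these genes, 28 of 66 were lower and 1 higher by 2-fold with LPS+8-Br-cAMP than unstimulated. That count takes several probe sets of some genes. It has no share over all probe sets beside it, so nothing is read from it.

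Markers of granulocytes and their precursors also differed between these arrays. The summed signal of 13 of them was 23926 with LPS+8-Br-cAMP, 45199 with LPS and 42837 unstimulated. All 13 were above the floor on some array, 13 of 13 were below 0 with LPS+8-Br-cAMP against LPS and 7 were lower by 2-fold (53.8%), with a median of -1.11, beside 46.8% of all genes below 0 and 5.81% lower. The 7 included genes of early granules and of later ones, such as Ltf, Ngp and Camp. Mpo, myeloperoxidase, read 50.5 with LPS+8-Br-cAMP, 282 with LPS and 369 unstimulated. Elane, neutrophil elastase, read 79.7 with LPS+8-Br-cAMP, 414 with LPS and 380 unstimulated. Their signals were near alike on the LPS and unstimulated arrays and several-fold lower on the third. The list's median for LPS against unstimulated was close to 0, at -0.0033.

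Early progenitor markers, 7 of 9 above the floor on some array, summed to 750 with LPS+8-Br-cAMP, 977 with LPS and 1508 unstimulated, but the list was mixed. With LPS+8-Br-cAMP against LPS, 2 of 7 were lower by 2-fold and 0 higher (28.6% lower, beside 5.81% of all genes), and 3 lay above 0. Myb, a factor of immature blood cells, was at least 2.97-fold lower in that comparison, whereas Kit, a receptor of progenitors and mast cells, read 141 with LPS+8-Br-cAMP, 88.0 with LPS and 55.9 unstimulated. Eosinophil, basophil and mast cell markers, all 9 above the floor on some array, summed to 1575 with LPS+8-Br-cAMP, 2363 with LPS and 1857 unstimulated. With LPS+8-Br-cAMP against LPS, 5 of the 9 were lower by 2-fold and 0 higher (55.6% lower, beside 5.81% of all genes), and 3 lay above 0. Hdc, in this list, was higher with LPS than unstimulated by 4.05 in log2, which weighs on the sums. B and plasma cell markers, 9 of 10, summed to 378 with LPS+8-Br-cAMP, 3172 with LPS and 5200 unstimulated. The median signal of that list was 49.7 with LPS+8-Br-cAMP, 47.0 with LPS and 90.2 unstimulated. Against LPS, 3 of 9 were lower by 2-fold and 0 higher (33.3% lower, beside 5.81% of all genes), and 3 lay above 0. Stromal markers, 7 of 8, summed to 4728 with LPS+8-Br-cAMP, 5537 with LPS and 7166 unstimulated. Erythroid markers, 4 of 9, summed to 242 with LPS+8-Br-cAMP, 104 with LPS and 189 unstimulated, and T and NK cell markers, 4 of 8, to 168 with LPS+8-Br-cAMP, 203 with LPS and 276 unstimulated. Dendritic cell markers summed to 51198 with LPS+8-Br-cAMP, 41022 with LPS and 34465 unstimulated, and macrophage markers to 56554 with LPS+8-Br-cAMP, 45861 with LPS and 37709 unstimulated. The dendritic list's median signal was 998 with LPS+8-Br-cAMP, 1347 with LPS and 1122 unstimulated, lowest where its sum was highest. Of its genes, 9 of 13 lay above 0 with LPS+8-Br-cAMP against LPS and 4 below. The macrophage list's median also went the other way than its sum. That median was 2582 with LPS+8-Br-cAMP, 4392 with LPS and 4222 unstimulated, and 5 of 9 genes lay below 0 against LPS. No marker read 0 on any array. The part of these cells in the lower S phase and mitotic signals was not tested.

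**Figure D4:**
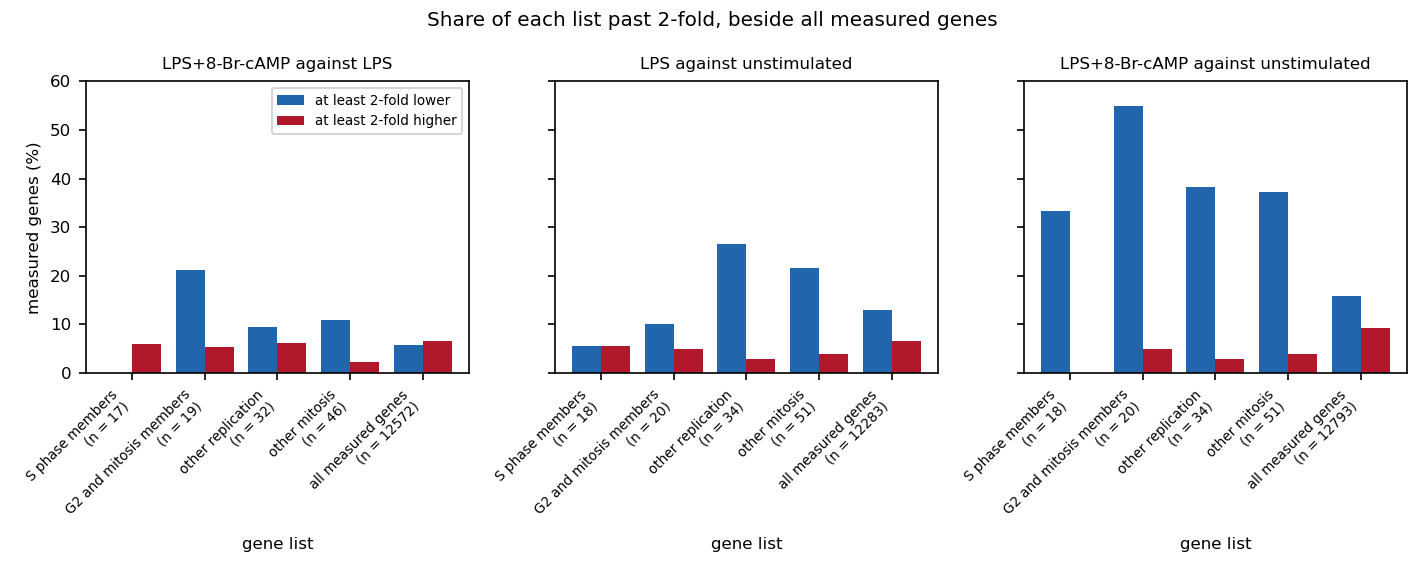
Percent of measured genes lower (left bars) and higher (right bars) by 2-fold in each comparison, for the S phase genes, the G2 and mitosis genes, other replication genes, other mitosis genes and all genes. In LPS+8-Br-cAMP against unstimulated the lower share is 55.0% for G2 and mitosis genes, 33.3% for S phase genes and 15.8% for all genes.

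Other genes of replication and mitosis, outside the 40, leaned the same way, though not to the same extent. Their medians with LPS+8-Br-cAMP against LPS were -0.19 for replication and -0.17 for mitosis, beside -0.47 for the genes described here. With LPS+8-Br-cAMP against unstimulated, 13 of 34 other replication genes were lower and 1 higher by 2-fold (38.2% lower, 2.94% higher), and 19 of 51 other mitosis genes were lower and 2 higher (37.3% lower, 3.92% higher), beside 15.8% lower and 9.36% higher of all genes. With LPS+8-Br-cAMP against LPS the counts were 3 lower and 2 higher of 32 replication genes, and 5 lower and 1 higher of 46 mitosis genes. These are 9.38% and 10.9% lower, beside 5.81% of all genes, and 6.25% and 2.17% higher, beside 6.49%. With LPS against unstimulated the counts were 9 lower and 1 higher of 34, and 11 lower and 2 higher of 51. The lower shares of 26.5% and 21.6% stood above the 13.0% of all genes. That of the genes described here, 7.89%, stood under it.

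Both sides of the licensing switch were among them. Cdt1, which loads the helicase, read 95.8 with LPS+8-Br-cAMP, 276 with LPS and 299 unstimulated, and its second probe set gave a log2 difference against LPS of -1.69 beside -1.53. Gmnn, geminin, the inhibitor of Cdt1, read 39.3 with LPS+8-Br-cAMP, 86.8 with LPS and 391 unstimulated. With LPS alone Gmnn was already lower than unstimulated (log2 -2.17), where Cdt1 differed by -0.12. Orc6, of the origin recognition complex, read 27.5 with LPS+8-Br-cAMP, 82.3 with LPS and 128 unstimulated, at least 2.53-fold lower with LPS+8-Br-cAMP than with LPS. The chromatin remodeller Hells read 85.0 with LPS+8-Br-cAMP and 23.9 with LPS on its brightest probe set, higher by at least 2.61-fold, but its second probe set and cyclic loess scaling gave the opposite direction (log2 -0.89 and -0.61). Rpa2, of the single-strand binding complex, was lower with LPS (46.7) than unstimulated (119) and read 99.3 with LPS+8-Br-cAMP. Timeless, a fork protection protein, ran upward, with 161 for LPS+8-Br-cAMP, 105 for LPS and 41.9 unstimulated. Dna2, a nuclease, was lower with LPS (67.9) than unstimulated (173), though its second probe set differed by 0.24.

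Among the other mitosis genes, Hmgb2, a chromatin protein abundant in dividing cells, read 219 with LPS+8-Br-cAMP, 789 with LPS and 491 unstimulated, a log2 difference of -1.85 against LPS that its second probe set shared at -2.02. Smc2, of condensin, was at least 2.77-fold lower with LPS+8-Br-cAMP (26.1) than with LPS (90.1), though its second probe set differed by -0.19. Kif22 read 51.5 with LPS+8-Br-cAMP, 127 with LPS and 242 unstimulated, but its second probe set differed by 0.14 between LPS+8-Br-cAMP and LPS. Not all ran downward. Lmnb1, lamin B1 of the nuclear envelope, read 331 with LPS+8-Br-cAMP, 89.9 with LPS and 87.1 unstimulated, and its second probe set also gave a higher value, with a log2 difference of 1.42 against LPS. Pttg1, securin, which guards sister chromatid cohesion, read 7621 with LPS+8-Br-cAMP, 4725 with LPS and 1668 unstimulated. With LPS against unstimulated, Racgap1, of the cleavage furrow, was lower (56.0 with LPS, 140 unstimulated), and Ncaph of condensin and Espl1, separase, were under the floor with LPS, at least 2.69-fold and 2.55-fold lower.

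**Figure D5:**
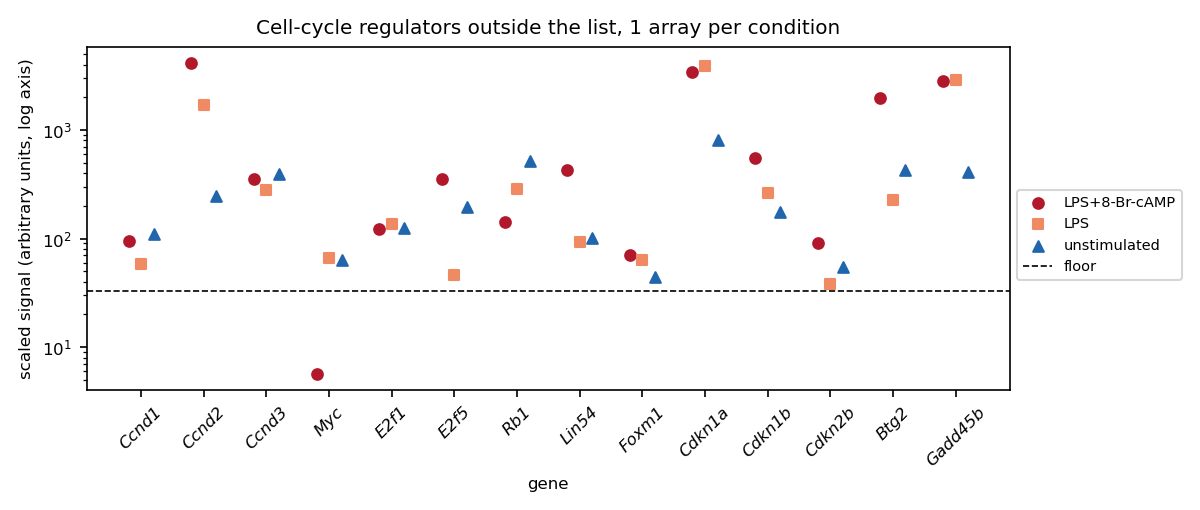
Scaled signal (log axis) of regulators of G1 and of the late cell cycle genes on the LPS+8-Br-cAMP, LPS and unstimulated arrays, with the floor as a line. Ccnd2 and Btg2 are highest with LPS+8-Br-cAMP, Cdkn1a is high on both LPS arrays, and E2f1 is level.

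The regulators of these genes differed among themselves. E2f1, an activator of S phase genes, read 122 with LPS+8-Br-cAMP, 135 with LPS and 126 unstimulated. Foxm1, the activator of G2 and mitosis genes, read 70.0 with LPS+8-Br-cAMP, 63.0 with LPS and 44.2 unstimulated. Mybl2 was under the floor on all 3 arrays at 25.7 with LPS+8-Br-cAMP, 11.7 with LPS and 28.3 unstimulated. Over the list of E2F, Rb family, MuvB and Foxm1 genes, 4 of 18 were lower and 1 higher by 2-fold with LPS+8-Br-cAMP than unstimulated (22.2% lower and 5.56% higher, beside 15.8% and 9.36% of all genes), with a median of 0.04. With LPS+8-Br-cAMP against LPS, 1 of 16 was lower and 2 were higher (6.25% and 12.5%, beside 5.81% and 6.49%). Rb1, the retinoblastoma protein, read 142 with LPS+8-Br-cAMP, 287 with LPS and 516 unstimulated, lowest with LPS+8-Br-cAMP and highest unstimulated. Lin54, the MuvB subunit that binds the CHR, read 430 with LPS+8-Br-cAMP, 92.5 with LPS and 100 unstimulated, and its second probe set was higher by 0.91 in log2 against LPS. With LPS against unstimulated, 4 of 18 were lower and 0 higher (22.2% lower, beside 13.0% of all genes). Rbl2, the Rb relative in the DREAM complex, was lower with LPS (110) than unstimulated (328), and its second probe set had the same direction. E2f2, an activator like E2f1, read 15.0 with LPS+8-Br-cAMP and 7.37 with LPS, both under the floor, against 125 unstimulated, lower by at least 3.84-fold on each, though its second probe set differed by -0.38. E2f6, a repressor, was also under the floor with LPS+8-Br-cAMP and with LPS, lower by at least 2.32-fold. E2f5 read 355 with LPS+8-Br-cAMP, 46.1 with LPS and 195 unstimulated, but its second probe set gave the opposite direction in both comparisons (log2 -0.22 against LPS, and 1.12 for LPS against unstimulated), as did cyclic loess scaling.

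Of G1 regulators, Ccnd2, cyclin D2, differed most, with 4169 for LPS+8-Br-cAMP, 1711 for LPS and 247 unstimulated. It was 16.9-fold higher with LPS+8-Br-cAMP than unstimulated, and its second probe set had the same order. Of 18 S phase genes, 13 lay below 0 (72.2%, beside 56.2% of all genes) and 5 above 0 with LPS+8-Br-cAMP against unstimulated. A link to Ccnd2 was not tested. Ccnd1, cyclin D1, read 95.7 with LPS+8-Br-cAMP, 58.3 with LPS and 111 unstimulated. Myc, the growth factor-response transcription factor, read 5.63 with LPS+8-Br-cAMP, under the floor, against 66.5 with LPS and 63.9 unstimulated, at least 2.04-fold lower with LPS+8-Br-cAMP than with LPS. Its relative Mycn read 66.1 with LPS+8-Br-cAMP and 5.09 with LPS, higher by at least 2.03-fold. Ccnh, the cyclin of the Cdk-activating kinase, was lower with LPS (125) than unstimulated (293). Over the 14 genes of this list, 1 was lower and 2 were higher with LPS+8-Br-cAMP than with LPS (7.14% and 14.3%, beside 5.81% and 6.49% of all genes). With LPS against unstimulated 1 of 13 was lower and 1 higher (7.69% each, beside 13.0% and 6.64%). With LPS+8-Br-cAMP against unstimulated 1 of 14 was lower and 1 higher (7.14% each, beside 15.8% and 9.36%).

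Several brakes on the cycle were higher. Of 16 Cdk inhibitors and other brakes, 3 were higher and 0 lower with LPS+8-Br-cAMP than with LPS (18.8% higher, beside 6.49% of all genes), and 5 were higher and 1 lower with LPS+8-Br-cAMP than unstimulated (31.2% higher, beside 9.36% of all genes). Btg2, an antiproliferative gene, read 1963 with LPS+8-Br-cAMP, 225 with LPS and 428 unstimulated, 8.71-fold higher with LPS+8-Br-cAMP than with LPS, and its second probe set had the same direction (log2 1.78). Cdkn1b, p27, which inhibits cyclin E and cyclin A kinases, read 554 with LPS+8-Br-cAMP, 260 with LPS and 177 unstimulated. Cdkn2b, p15, which inhibits the cyclin D kinases, read 90.8 with LPS+8-Br-cAMP, 38.0 with LPS and 54.1 unstimulated. These 3 set the LPS+8-Br-cAMP array apart from the other two. Cdkn1a, p21, followed LPS instead, with 3401 for LPS+8-Br-cAMP, 3868 for LPS and 806 unstimulated. Gadd45b read 2834 with LPS+8-Br-cAMP, 2859 with LPS and 414 unstimulated. Ccng2, a cyclin found in arrested cells, read 1776 with LPS+8-Br-cAMP, 1910 with LPS and 801 unstimulated. With LPS against unstimulated, 3 of 15 brakes were higher and 2 lower, beside 6.64% and 13.0% of all genes, among them Wee1, the kinase that restrains Cdk1, at 38.1 with LPS and 111 unstimulated, whose second probe set differed by 0.43 in the opposite direction. Whether any of these regulators bears on the S phase and mitotic signals was not tested.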

How the data were processed

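RNA of 1 mouse bone marrow-derived dendritic cell culture per condition was measured on Affymetrix Mouse 430 2.0 arrays. The deposited values were linear probe set intensities, and per the submitters' processing notes the authors used MAS5 to make them. Its version and settings are not stated in the sources used here. No detection calls were used. Columns were matched to conditions by their sample labels.

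Of 45101 probe sets, 64 controls were left out. The platform annotation gave 34945 of the rest 1 gene, 932 several and 9160 none. RefSeq's gene table held 99.4% of those with 1 gene and changed 0 of their symbols. Each array was multiplied by a factor (LPS+8-Br-cAMP 1.63, LPS 0.929, unstimulated 0.763) that set its mean, trimmed by 2% at each end, to the average of the 3 arrays. The floor, 32.5, was the highest array median after scaling. Signals under it were set to it before log2 was taken. A gene took its brightest single-gene probe set and counted as measured in a comparison when above the floor on at least 1 of its 2 arrays. The error of 1 probe set is the SD, over genes, of the difference between the log2 differences of the 2 brightest probe sets, divided by the square root of 2. For LPS+8-Br-cAMP this was 0.53 against LPS (5285 genes) and 0.62 against unstimulated (5472), and for LPS against unstimulated 0.49 (5320). It does not hold the spread between cultures, and having 1 array per condition limits the precision.

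The 40 genes, the other lists and the settings were chosen with earlier results of these data known. Genes of the 40 are named with their signals where they passed 2-fold in a comparison, and by range or single values otherwise. In the other pathway lists, up to 4 genes with the largest differences past 2-fold against LPS and against unstimulated are named, besides Cdkn1a, Ccnd1, Myc, E2f1, Foxm1 and Mybl2. Other scalings, floors, probe set choices and fold thresholds were tried. Python 3.11.15 with numpy 2.4.6 and pandas 2.3.3 was used, and R 4.3.3 with limma 3.58.1 for cyclic loess. The scripts were tested on simulated data. Promoter windows came from RefSeq, GRCm38.p6, and those on chromosome 18 were not used.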

Additional observations from a re-analysis of the deposited data

How the results depend on the processing

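The median of the measured genes stayed below 0, and below the median of all genes, under each of the 12 other settings run in each comparison. It lay from -0.97 to -0.23 for LPS+8-Br-cAMP against LPS, from -0.82 to -0.26 for LPS against unstimulated and from -1.27 to -0.50 for LPS+8-Br-cAMP against unstimulated. Relative to the median of all genes, which scaling itself moved (from -0.65 to 0.21, from -0.56 to -0.10 and from -1.08 to -0.01 in the same order of comparisons), the genes' median lay at -0.56 to -0.32, -0.28 to -0.13 and -0.77 to -0.19. The counts depended more on the setting. For LPS+8-Br-cAMP against LPS (4 lower, 2 higher), 17 were lower and 0 higher in the signals as deposited (median -0.97; 28.0% of all genes lower), 2 lower under spike scaling (median -0.23), 9 lower with the floor at the 25th percentile, 0 lower and 1 higher with it at the 75th or with the mean over probe sets, 1 lower and 0 higher on second probe sets, 1 higher with only _at probe sets or a mean signal of at least 100, 13 lower and 4 higher at 1.5-fold, and 0 and 0 at 3-fold. For LPS against unstimulated (3 lower, 2 higher), 16 were lower and 1 higher under spike scaling (median -0.82; 25.9% of all genes lower), 9 lower and 1 higher as deposited (median -0.71), 1 and 1 with the floor at the 75th percentile, a pseudocount of 16, the mean over probe sets or a mean signal of at least 100, 0 higher on second probe sets, 1 higher with only _at probe sets, 16 lower at 1.5-fold, and 0 lower and 1 higher at 3-fold. For LPS+8-Br-cAMP against unstimulated (17 lower, 1 higher), 27 were lower and 0 higher as deposited (median -1.27; 53.6% of all genes lower), 11 lower and 3 higher under cyclic loess, 3 higher under quantile normalization, 0 higher under spike scaling, 2 higher with the floor at the 25th percentile, 6 lower with it at the 75th or with the mean over probe sets, 7 lower and 0 higher on second probe sets, 10 lower at a mean signal of at least 100, 4 higher at 1.5-fold, and 3 lower and 0 higher at 3-fold. Fewer genes are measured with the higher floor, on second probe sets and at the brightness minimum; the cause of the other shifts was not tested. Of 300 values for single genes past 2-fold, 4 changed direction: Fen1 in LPS+8-Br-cAMP against LPS on its second probe set (-0.60), Gins2 in LPS against unstimulated on its second probe set and with only _at probe sets (both -0.11), and Mki67 in LPS+8-Br-cAMP against unstimulated as deposited (-0.027). The floor, pseudocount and brightness settings keep the probe set and scaling, so they could not change direction. On second probe sets, 2 of 14 values changed direction and 5 of 14 were still past 2-fold. Over the 5 scalings, 7 of 36, 8 of 38 and 8 of 38 measured genes changed direction in the 3 comparisons, among them Mcm2, Mcm4 and Cdk1 in LPS+8-Br-cAMP against LPS. No paired analysis was possible because each condition has 1 array. The arrays limit precision to about the error of 1 probe set, and nothing here measures how far cultures of 1 condition differ.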
